A study of Mus musculus with 58 samples.

Results

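Resting microglia, the macrophages of the brain parenchyma, carry a set of surface and secreted proteins that are used as markers of their resting, or homeostatic, state. 8 of the genes for these proteins, Cx3cr1, Tmem119, Selplg, Olfml3, Siglech, Gpr34, Crybb1 and Fcrls, were followed here across the loss of the lysosomal enzyme gene Sgsh, across age, and across the lowering of the transcription factors Mitf, Tfeb and Tfe3. The members were chosen by gene symbol, and all 8 of 8 were found in each of the 3 count tables, among 24940 genes in the age series, 10277 in the WT ASO libraries and 10589 in the SgshKO ASO libraries. Every member had at least 728 counts in every library, so none was near the filter on low counts.

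PolyA RNA was sequenced from microglia of C57BL/6 mouse forebrain, gated on CD11b, on low CD45 and on CX3CR1. There are 58 libraries in 13 groups. WT and SgshKO mice, which lack a working gene for a heparan sulfate degrading enzyme, were compared at 3 ages: 3 weeks, with 3 WT libraries and 4 of SgshKO, 4 months, with 2 of each, and 8 months, with 4 of WT and 7 of SgshKO. Other WT mice were injected with PBS, with a control antisense oligonucleotide (ASO) that the labels call ntc, or with 1 of 3 ASOs that target Mitf, Tfeb and Tfe3, giving 4 libraries of each kind, and other SgshKO mice had ntc or the Mitf and Tfe3 ASOs together, in 8 libraries each. An ASO is a short nucleic acid strand that lowers the transcript it pairs with. The ASOs went into the cerebral ventricles once and therefore reach other brain cells as well as microglia, and cells were collected 14 days later. Neither the age of the ASO-treated mice nor the sex of any mouse is in the labels. No label says whether the libraries of a group came from separate animals, so the p-values measure the spread between libraries.

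The 8 genes have known roles in how microglia sense and bind their surroundings. Cx3cr1 is the receptor for fractalkine, the chemokine Cx3cl1 that neurons display. Gpr34 is a G protein-coupled receptor for lysophosphatidylserine, and Fcrls is an Fc receptor-like scavenger receptor. Siglech belongs to the family of sialic acid binding lectins and signals through the adaptor Tyrobp. Selplg encodes the selectin ligand PSGL-1, Tmem119 a membrane protein widely used as a microglial marker, Olfml3 a secreted glycoprotein and Crybb1 a beta crystallin best known from the lens. Such markers are known to decline when microglia take on the disease-associated state described in models of neurodegeneration.

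Upstream sequences are shown for 1 gene of each time course described below: Olfml3, lower in SgshKO from 3 weeks; Siglech, lower only at the later ages; and Fcrls, never called lower. Sequences before RefSeq start sites (GRCm38.p6) were at hand for 5 of the 8 genes, namely these 3, Cx3cr1 and Crybb1. None was at hand for Tmem119, Selplg or Gpr34. Each run holds the 250 bases before the start, 5′ to 3′ on the strand of the gene. Capitals mark matches to CACGTG, the E-box letters that the Mitf and Tfe family is known to bind, or to GAGGAA, the core letters of sites for the microglial factor PU.1, each searched on both strands.
Olfml3: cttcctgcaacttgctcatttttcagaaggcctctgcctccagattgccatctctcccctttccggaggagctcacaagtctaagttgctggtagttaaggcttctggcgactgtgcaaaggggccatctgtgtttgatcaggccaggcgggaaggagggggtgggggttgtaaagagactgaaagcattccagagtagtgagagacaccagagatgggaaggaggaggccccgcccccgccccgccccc
Siglech: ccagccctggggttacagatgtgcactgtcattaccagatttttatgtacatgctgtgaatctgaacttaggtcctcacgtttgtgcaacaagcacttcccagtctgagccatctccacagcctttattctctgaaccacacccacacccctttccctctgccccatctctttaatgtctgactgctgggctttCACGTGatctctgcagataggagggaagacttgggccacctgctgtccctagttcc
Fcrls: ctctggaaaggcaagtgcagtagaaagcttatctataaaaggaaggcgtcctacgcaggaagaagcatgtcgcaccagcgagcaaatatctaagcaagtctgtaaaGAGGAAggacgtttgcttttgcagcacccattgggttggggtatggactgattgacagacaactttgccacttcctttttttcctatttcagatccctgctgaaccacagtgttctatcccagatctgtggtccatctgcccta
The Olfml3 run is chr3:103738002-103738251 on the minus strand, the Siglech run chr7:55767934-55768183 on the plus strand and the Fcrls run chr3:87263525-87263774 on the minus strand. Of the 5 genes, Siglech alone held CACGTG, 56 to 51 bases before its start, and Fcrls alone held GAGGAA, 144 to 139 bases before its start. Among 32851 promoters of the same length, 6.02% held CACGTG and 23.3% held GAGGAA on either strand. The 2 motifs do not overlap each other in these runs, and a match is a description of the letters only.

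In the genome of the age series (mm10), Tmem119 (chromosome 5, 113793729 to 113800352, minus strand) and Selplg (chromosome 5, 113817798 to 113830501, minus strand) lie close together, and Crybb1 (chromosome 5, 112255820 to 112269585, plus strand) is on the same chromosome. In the GENCODE annotation the Tmem119 and Selplg genes are 18019 bases apart with 1 annotated gene, Gm19931, between them. Olfml3 (103735394 to 103738001) and Fcrls (87250965 to 87263524) are both on the minus strand of chromosome 3. Cx3cr1 is on chromosome 9 (120048683 to 120068296, minus strand), Siglech on chromosome 7 (55768184 to 55778925, plus strand) and Gpr34 on chromosome X (13632769 to 13640858, plus strand). Gpr34 lies within Cask, which is on the other strand with no shared exon bases, whereas the antisense gene Gm33858 shares exon bases with Cx3cr1. The libraries keep strand, but how the counting used it is not given in the sources used here.

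Depth ran from 8191508 to 27106584 counts per library over the ages, from 14372015 to 30378870 for the ASOs in WT and from 12517838 to 30431437 for the ASOs in SgshKO. Markers of microglia (8 genes, among them P2ry12 and Csf1r) summed to 41939 to 42664 CPM (counts scaled to the library total with TMM factors) in WT and 37759 to 42873 CPM in SgshKO at 3 weeks, to 35978 and 39206 against 28187 and 32353 CPM at 4 months, and to 35203 to 39280 against 32597 to 36614 CPM at 8 months. The 3 genes of the sort markers, Cx3cr1 among them, summed to 11730 to 12206 CPM in WT and 9643 to 10328 CPM in SgshKO at 3 weeks, to 10472 and 11385 against 6562 and 6998 CPM at 4 months, and to 8485 to 10696 against 6499 to 7424 CPM at 8 months, with no overlap at any age. Transcripts of other blood cells were higher in SgshKO at the later ages. The summed level of 8 neutrophil genes was at most 7.33 CPM in any WT library and at most 28.9 CPM in SgshKO at 3 weeks, but 2787 and 13846 CPM in SgshKO at 4 months and 399.7 to 5394 CPM in SgshKO at 8 months. The 6 monocyte genes summed to at most 28.0 CPM in WT, to 381 and 1469 CPM in SgshKO at 4 months and to 67.7 to 484 CPM in SgshKO at 8 months. 10 genes of the dissociation response (Fos, Jun and others) summed to 4397 to 6805 CPM in WT and 4060 to 20029 CPM in SgshKO at 3 weeks, to 16815 and 21898 CPM against 11494 and 13224 CPM at 4 months, and to 7517 to 9337 CPM against 4013 to 6849 CPM at 8 months. Those of 5 endothelial genes summed to 55.0 to 71.4 CPM in WT and 32.0 to 38.1 CPM in SgshKO at 3 weeks, and to 46.6 to 62.4 against 16.3 to 28.2 CPM at 8 months. In each genotype 2 of the 5 had no counts at 3 weeks and 1 had none at 8 months, so the sums rest on few genes. In bulk RNA, fewer cells of a type and less RNA per cell cannot be told apart. Sgsh transcript was counted in both genotypes, at 20.3 to 25.9 CPM in WT and 14.9 to 23.4 CPM in SgshKO at 3 weeks, 30.7 and 39.4 against 22.9 and 30.3 CPM at 4 months, and 31.9 to 59.2 against 20.1 to 34.7 CPM at 8 months, so it is no check of the labels.

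The first question was which of the 8 markers are lower in SgshKO microglia and from which age. At 3 weeks 4 of 8 were called lower and none higher (edgeR quasi-likelihood test, Benjamini-Hochberg adjusted p under 0.05), when 3.72% of the 14309 genes tested were lower and 5.31% higher. At 4 months 7 of 8 were lower and none higher, against 9.26% and 10.3% of all genes. At 8 months 7 of 8 were lower and 1 was higher, against 18.9% and 21.6% of all genes. The median log2 fold change of the 8 was -0.16 at 3 weeks, -0.94 at 4 months and -0.56 at 8 months, beside -0.02, 0.02 and 0.02 over all genes tested. By these calls Selplg, Tmem119, Cx3cr1 and Olfml3 were lower early, Crybb1, Siglech and Gpr34 late, and Fcrls at no age.

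**Figure D1:**
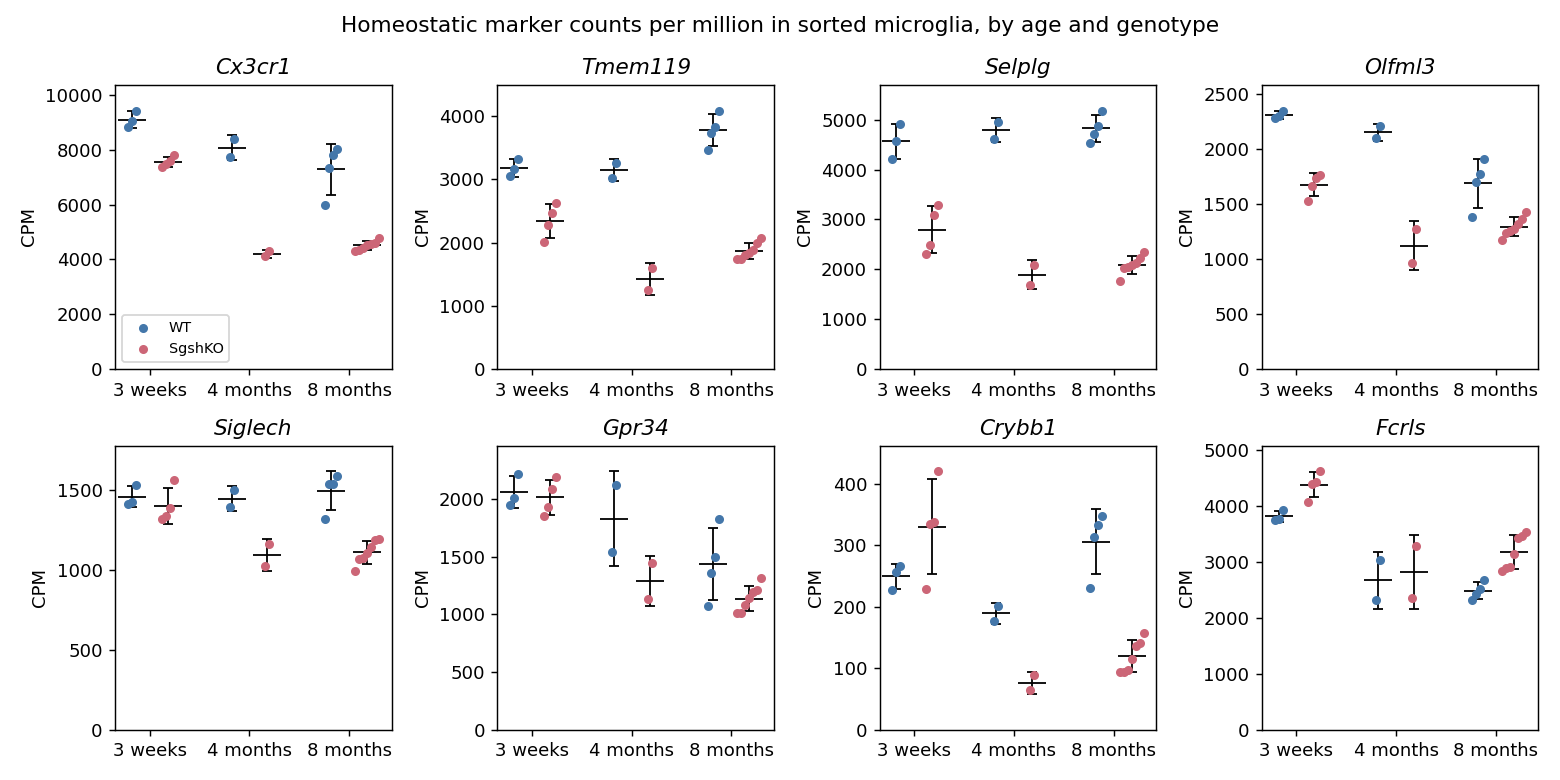
CPM (vertical axis, from 0) of the 8 markers in each WT (blue) and SgshKO (red) library at 3 weeks, 4 months and 8 months; points are libraries, black lines the mean and its SD. The top row holds the 4 genes called lower in SgshKO at 3 weeks, and in the bottom row the groups of Siglech, Gpr34 and Crybb1 overlap at 3 weeks, while Fcrls is higher in all 7 SgshKO libraries than in all 4 WT libraries at 8 months.

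Selplg fell furthest of the early genes. At 3 weeks the WT libraries had 4567, 4916 and 4215 CPM and the SgshKO libraries 2301, 3087, 3286 and 2492 CPM. At 4 months WT had 4962 and 4625 CPM and SgshKO 2095 and 1682 CPM. At 8 months WT had 4873, 5184, 4727 and 4541 CPM, and the 7 SgshKO libraries ran from 1769 to 2348 CPM with a median of 2096. The groups did not overlap at any age, the WT level stayed within 4215 to 5184 CPM throughout, and every SgshKO library was below it. The log2 fold change was -0.71 ± 0.11 (SE; adjusted p = 5.58e-05) at 3 weeks, -1.34 ± 0.14 (3.18e-07) at 4 months and -1.21 ± 0.09 (4.87e-11) at 8 months by edgeR, which puts SgshKO at 61.1%, 39.4% and 43.3% of WT.

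Tmem119, its neighbour on chromosome 5, took a similar course at a lower level. The WT libraries had 3057, 3326 and 3162 CPM at 3 weeks against 2012, 2474, 2627 and 2274 CPM in SgshKO. At 4 months they had 3267 and 3022 CPM against 1600.0 and 1249 CPM. At 8 months they had 3837, 4088, 3743 and 3463 CPM, against 1734 to 2079 CPM (median 1834, n = 7). Every SgshKO library was below every WT library of its age. The log2 fold changes were -0.44 ± 0.09 (adjusted p = 0.00223), -1.14 ± 0.12 (3.72e-07) and -1.02 ± 0.08 (7.30e-11) by edgeR, or 73.8%, 45.3% and 49.4% of WT.

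Cx3cr1 was the most highly counted member in WT, and it is the transcript of a protein the cells were sorted on. At 3 weeks WT had 9066, 8822 and 9425 CPM and SgshKO 7809, 7606, 7472 and 7364 CPM. At 4 months the values were 8389 and 7744 against 4302 and 4107 CPM. At 8 months WT had 8038, 7329, 7809.5 and 5972 CPM, and SgshKO 4305 to 4793 CPM (median 4509, n = 7). The groups were apart at each age, with the smallest gap at 3 weeks. The log2 fold change was -0.27 ± 0.08 (edgeR adjusted p = 0.0253) at 3 weeks, -0.94 ± 0.10 (3.18e-07) at 4 months and -0.69 ± 0.06 (1.99e-09) at 8 months. The 3-week difference no longer passed when WT replicate 1 (adjusted p = 0.0716) or 3 (0.111) or SgshKO replicate 3 (0.0558) or 4 (0.0683) was left out, or with no filter on low counts (0.0818), at log2 fold changes of -0.24 to -0.27.

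Olfml3, the secreted member of the early genes, differed most at 4 months. WT had 2299.7, 2345 and 2278 CPM at 3 weeks, and SgshKO 1529.7, 1737, 1763 and 1666 CPM. At 4 months WT had 2203 and 2094 CPM and SgshKO 1274 and 962 CPM. At 8 months WT had 1699, 1769.5, 1904 and 1379 CPM, and SgshKO 1172 to 1428 CPM (median 1272, n = 7), so that the lowest WT library lay among the SgshKO ones. The WT level itself was lower at 8 months than at 3 weeks, which is taken up below. The log2 fold changes were -0.46 ± 0.10 (edgeR adjusted p = 0.00218), -0.94 ± 0.13 (1.04e-05) and -0.39 ± 0.08 (0.000386).

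**Figure D2:**
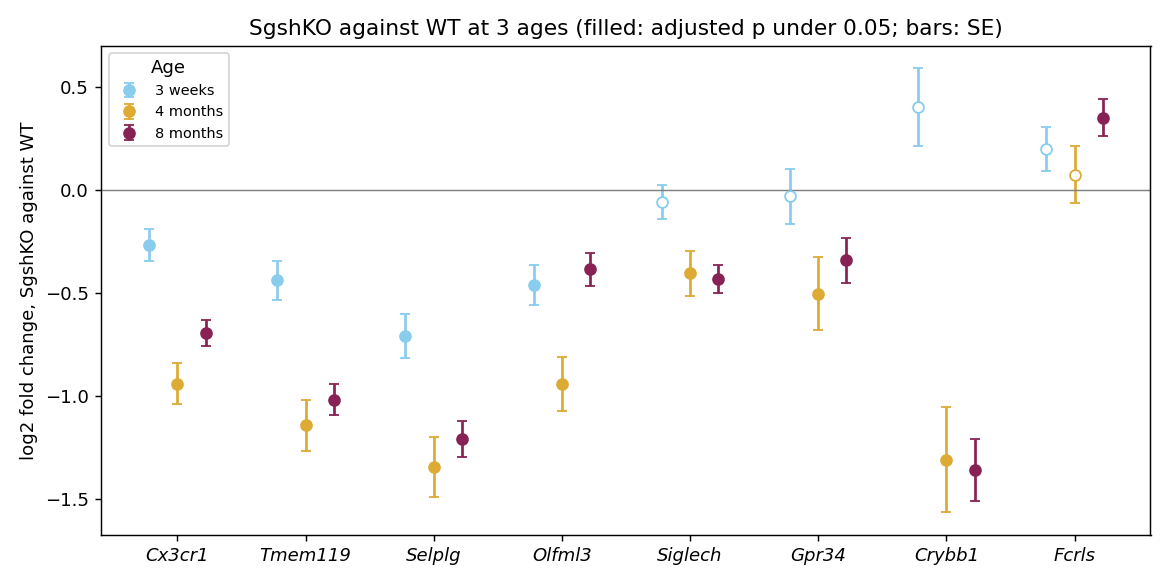
Log2 fold change of SgshKO against WT (vertical axis) for the 8 markers at 3 weeks, 4 months and 8 months; bars are the SE from edgeR and filled points passed an adjusted p of 0.05. Selplg, Tmem119, Cx3cr1 and Olfml3 are below 0 at all 3 ages, Crybb1 goes from 0.40 at 3 weeks to -1.36 at 8 months, and Fcrls is above 0 at each age. At 4 months its value in TPM was -0.017, where the median over all genes was -0.12.

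Crybb1 was the late gene with the largest fall. At 3 weeks the WT libraries had 227, 266 and 256 CPM and the SgshKO libraries 229, 338, 419.9 and 335 CPM. 3 of the 4 SgshKO libraries were therefore above all WT libraries, with a log2 fold change of 0.40 ± 0.19 that did not pass (edgeR adjusted p = 0.242). At 4 months WT had 177 and 201 CPM and SgshKO 89.0 and 64.0 CPM, and at 8 months WT had 230.4, 333, 348 and 313 CPM and SgshKO 94.0 to 158 CPM (median 114, n = 7). At both later ages the groups were apart, at log2 fold changes of -1.31 ± 0.26 (adjusted p = 0.000604) and -1.36 ± 0.15 (8.07e-08), or 40.3% and 39.0% of WT.

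Siglech moved less. The libraries had 1533, 1413 and 1424 CPM in WT and 1316, 1562, 1389 and 1336 CPM in SgshKO at 3 weeks, where the groups overlapped and the log2 fold change was -0.06 ± 0.08 (edgeR adjusted p = 0.808). At 4 months WT had 1499.8 and 1389.6 CPM and SgshKO 1161 and 1021 CPM. At 8 months WT had 1586, 1539, 1536 and 1319.6 CPM and SgshKO 995 to 1189.9 CPM (median 1103, n = 7). Both later ages had no overlap between genotypes. The log2 fold changes were -0.41 ± 0.11 (adjusted p = 0.00950) and -0.43 ± 0.07 (1.27e-05), and the 4-month difference did not pass when WT replicate 1 (0.105) or SgshKO replicate 2 (0.0754) was left out, nor when the 2 groups were fitted alone (0.0683).

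Gpr34 had the smallest fall of the late genes at 8 months. At 3 weeks WT had 2216, 1954 and 2011 CPM and SgshKO 2086, 2191, 1931 and 1855 CPM, a log2 fold change of -0.03 ± 0.14 (edgeR adjusted p = 0.950). At 4 months WT had 2121 and 1543 CPM and SgshKO 1446 and 1139 CPM. At 8 months WT had 1829.9, 1361, 1501 and 1077 CPM and SgshKO 1009 to 1313 CPM (median 1145, n = 7), and 1 WT library lay within the SgshKO range. The log2 fold changes were -0.50 ± 0.18 (adjusted p = 0.0485) and -0.34 ± 0.11 (0.0156). The 4-month call did not outlast the removal of WT replicate 1 (log2 fold change -0.25, adjusted p = 0.515) or SgshKO replicate 2 (-0.39, 0.276), and did not pass in a fit of the 2 groups alone (-0.51, 0.0968) or with the dissociation response as a covariate (-0.52, 0.0579), where the fold was as large. The 8-month call was lost without WT replicate 1 (-0.21, 0.145).

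Fcrls was the exception among the 8. At 3 weeks WT had 3930.4, 3759 and 3742 CPM and SgshKO 4072, 4614, 4394 and 4431 CPM, with every SgshKO library above every WT library and a log2 fold change of 0.20 ± 0.11 (edgeR adjusted p = 0.324, and 0.0390 in a fit of the 2 groups alone). At 4 months the groups overlapped, with 3034 and 2313 CPM in WT and 3285 and 2348 CPM in SgshKO (0.08 ± 0.14, adjusted p = 0.760). At 8 months WT had 2521, 2423, 2676 and 2313 CPM and SgshKO 2829 to 3532 CPM (median 3133, n = 7), again with no overlap. The rise at 8 months was 0.35 ± 0.09 (adjusted p = 0.00236), or 128% of WT. In TPM, which scale by transcript length and library total, the same difference was 0.20 and did not pass (limma adjusted p = 0.0697 with a pseudocount of 1 and 0.0715 with a pseudocount of 0.1). The median log2 fold change over all genes was -0.14 and -0.16 in these TPM fits, beside 0.02 by edgeR.

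The neutrophil and monocyte levels were higher in SgshKO at the ages at which 7 of the 8 members were lower. The summed microglia markers were lower at 4 months, while their ranges overlapped at 8 months. The sort marker sum was lower at every age, but it holds the member Cx3cr1 and so is no separate measure. The part of these sums in the results was not tested. The neutrophil and monocyte sums were also unlike each other among SgshKO libraries of the same age. At 4 months SgshKO replicate 2 had the higher neutrophil sum, 13846 against 2787 CPM in replicate 1. Olfml3 was at 962 CPM in replicate 2 against 1274 CPM in replicate 1, and Fcrls at 2348 against 3285 CPM. The other members were lower in replicate 2 as well. How many of all genes were lower in replicate 2 was not counted, so this is no result about the members. At 8 months SgshKO replicate 3 had the highest neutrophil sum, 5394 CPM, and replicate 6 the lowest, 399.7 CPM. In these libraries Selplg was at 2036 and 2096 CPM, Tmem119 at 1734 and 1739.6 CPM, Cx3cr1 at 4348 and 4305 CPM, and Olfml3 at 1314 and 1238 CPM. Siglech was at 995 and 1067 CPM, Gpr34 at 1208 and 1145 CPM, Crybb1 at 114 and 94.0 CPM, and Fcrls at 3133 and 2896 CPM. Leaving out the 4-month libraries, and adding the dissociation response as a covariate, were both chosen after these sums had been seen. Neither adjusts for the neutrophil or monocyte sums, and the dissociation sums were themselves apart between genotypes at 4 and 8 months. In both fits 4 members were lower at 3 weeks, and 7 lower and 1 higher at 8 months. Without the 4-month libraries 509 of 13571 genes were lower at 3 weeks, and 2942 lower and 2932 higher at 8 months. With the covariate these were 450 of 14309 genes, and 2277 and 2677. With that covariate 6 of the 8 were lower at 4 months, when 1230 of 14309 genes were lower.

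Whether a fall was larger at a later age was tested as the difference between genotype effects. Between 3 weeks and 4 months it passed for 3 of 8 members, all lower, against 0.895% of all genes: Crybb1 (-1.71 ± 0.32 on the log2 scale, edgeR adjusted p = 0.00400), Cx3cr1 (-0.67 ± 0.13, 0.00448) and Tmem119 (-0.70 ± 0.15, 0.0139). Between 3 weeks and 8 months it passed for 5, all lower, against 3.26% of all genes: Crybb1 (-1.76 ± 0.25, 3.31e-05), Tmem119 (-0.58 ± 0.12, 0.00264), Cx3cr1 (-0.43 ± 0.10, 0.00655), Selplg (-0.50 ± 0.14, 0.0246) and Siglech (-0.38 ± 0.11, 0.0267). So the early genes Cx3cr1, Tmem119 and Selplg were lowered further after 3 weeks, and of the late genes Crybb1 and Siglech passed the test of the difference. Gpr34 did not (-0.47, adjusted p = 0.297 at 4 months and -0.31, 0.313 at 8 months), and for Olfml3 the effect at 8 months was close to that at 3 weeks (0.08 ± 0.13, 0.793). The Siglech difference did not pass when replicate 2 (0.0623) or 3 (0.0520) of WT at 3 weeks, replicate 2 of SgshKO at 3 weeks (0.0716) or replicate 1 of WT at 8 months (0.0564) was left out. Selplg did not pass when replicate 3 of WT (0.0670) or replicate 2 of SgshKO (0.0589) at 3 weeks was left out.

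Between 4 and 8 months no member's genotype effect differed by edgeR (0 of 8; 2 at an unadjusted p under 0.05, and 1, Olfml3, by DESeq2), when 0.133% of all genes were lower and 0.259% higher. The differences ran from -0.05 to 0.56, the highest in Olfml3 (0.56 ± 0.15, adjusted p = 0.117). The counts at 4 months rest on 2 libraries a group. Without WT 4-month replicate 1 only Crybb1 differed between 3 weeks and 4 months (Cx3cr1 adjusted p = 0.0527, Tmem119 0.0926), and without SgshKO 4-month replicate 2 Tmem119 did not (0.0908). Without SgshKO 4-month replicate 1 Selplg and Olfml3 joined the 3, and Olfml3 differed between 4 and 8 months.

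Within a genotype, age had its own course. In SgshKO all 8 members, Fcrls included, were lower at 4 months than at 3 weeks, against 15.2% of all genes (without SgshKO 4-month replicate 2, adjusted p was 0.0662 for Siglech and 0.0698 for Gpr34), and all 8 were lower at 8 months, against 15.1%. From 3 weeks to 8 months the largest fall was in Crybb1 (-1.47 ± 0.15, edgeR adjusted p = 6.40e-08), followed by Gpr34 (-0.82 ± 0.11, 2.99e-06) and Cx3cr1 (-0.75 ± 0.06, 2.03e-09). The smallest was in Tmem119 (-0.33 ± 0.08, 0.00175). In WT only Fcrls was lower at 4 months (-0.51 ± 0.13, 0.0185), when 2.6% of all genes were, and it did not pass when the first WT library of 3 weeks (adjusted p = 0.0508) or the second of 4 months (0.428) was left out, or with the dissociation response as a covariate (log2 change -0.38, 0.423). At 8 months Fcrls (-0.62 ± 0.11, 0.000386), Gpr34 (-0.51 ± 0.13, 0.0177), Olfml3 (-0.45 ± 0.10, 0.00410) and Cx3cr1 (-0.32 ± 0.08, 0.00846) were lower in WT, 4 of 8 against 4.63% of all genes. Of these, Cx3cr1 did not pass without WT 3-week replicate 3 (0.0537), nor Gpr34 without WT 3-week replicate 1 (0.0859) or WT 8-month replicate 2 (0.0506). Selplg, Siglech, Crybb1 and Tmem119 had log2 changes of 0.04 to 0.29 in WT over the same span and did not pass. None of these WT differences passed once the difference between Ddx3y and Xist, a Y-linked and a female-specific transcript, was a covariate. Calls over all genes fell as well, from 372 to 298 lower at 4 months and from 662 to 256 lower at 8 months. At 8 months the log2 change was then -0.33 in Cx3cr1 (adjusted p = 0.0866), -0.45 in Fcrls (0.0707), -0.31 in Olfml3 (0.212) and -0.25 in Gpr34 (0.499), and that of Fcrls at 4 months was -0.42 (0.0704). The part of sex in any of these WT differences was not tested.

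The 8 transcripts are abundant ones. Together they took 2.63% to 2.67% of all counts in WT libraries at 3 weeks, 2.32% and 2.57% at 4 months and 2.12% to 2.49% at 8 months. In SgshKO the share was 2.04% to 2.27% at 3 weeks, 1.30% and 1.52% at 4 months and 1.45% to 1.64% at 8 months, below every WT library of the same age. Ordered by TPM in WT at 3 weeks, Cx3cr1 came first (3740 ± 170, SD, n = 3), then Fcrls (2962 ± 90.4), Selplg (2703 ± 175), Tmem119 (2362 ± 82.1), Olfml3 (2052 ± 5.38), Gpr34 (1676 ± 120), Siglech (897 ± 52.8) and Crybb1 (443 ± 34.5). No neighbours in this order overlapped in their libraries, the closest being Fcrls (2884 to 3061 TPM) and Selplg (2524 to 2874 TPM). In SgshKO at 8 months Fcrls led (2267 ± 235, n = 7), ahead of Cx3cr1 (1704 ± 81.7), Tmem119 (1275 ± 80.5), Selplg (1138 ± 73.6), Olfml3 (1057 ± 60.3), Gpr34 (851 ± 68.9), Siglech (648 ± 39.6) and Crybb1 (194 ± 39.5). The ranges of Tmem119 and Selplg (1170 to 1410 and 1013 to 1230) overlapped there, as did those of Selplg and Olfml3 (953 to 1124). Siglech was listed with a transcript length of 2197 bases in the TPM table and 2475 in the count table, and the values here are scaled by the TPM table's length.

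Of 30 other genes of the homeostatic state 9 were lower and 1 higher at 3 weeks, when 3.72% of all genes were lower and 5.31% higher. At 4 months 23 were lower and none higher, against 9.26% and 10.3%, and at 8 months 24 were lower and none higher, against 18.9% and 21.6% (edgeR), with a median log2 fold change of -0.54 at 8 months beside -0.56 for the 8 members. Among the lowest at 8 months were Gpr165, an orphan receptor (-6.45 ± 0.21, adjusted p = 3.16e-17), Upk1b, a tetraspanin family member (-2.11 ± 0.21, 1.89e-08), and Slco2b1, an organic anion transporter (-1.19 ± 0.06, 6.07e-14). All 3 were already lower at 3 weeks, at -2.18, -2.14 and -0.67, and at 4 months, at -5.24, -3.53 and -1.25. Gpr165 had 566 to 689.7 CPM in WT and 132 to 154 CPM in SgshKO at 3 weeks, and 163 to 341 against 1.33 to 4.09 CPM at 8 months. Of the 16 genes of the disease-associated state 10 were higher and 1 lower at 3 weeks, 15 higher at 4 months and 16 at 8 months, beside the same shares of all genes.

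The ligands, the adaptor and the modifying enzymes of the members formed a list of 14, of which 11 passed the filter on low counts. At 8 months 1 was lower and 4 higher in SgshKO, when 18.9% of all genes were lower and 21.6% higher. Tpst2, a tyrosylprotein sulfotransferase of the kind that sulfates PSGL-1, was lower (-0.62 ± 0.08, edgeR adjusted p = 1.05e-06), at 140.5 to 189 CPM in SgshKO and 221 to 272 CPM in WT. It was also lower at 4 months (-0.89 ± 0.13, 3.71e-05) and not called at 3 weeks (-0.21 ± 0.10, 0.243). Tyrobp, the signalling adaptor of Siglech and Trem2, was higher at all 3 ages, at 0.74 ± 0.14 (0.000611), 1.13 ± 0.18 (6.60e-05) and 1.52 ± 0.12 (2.16e-10), and its 8-month levels were 363 to 390.1 CPM in WT and 792.5 to 1248 CPM in SgshKO. Abhd12, a lipase that degrades lysophosphatidylserine, the lipid that Gpr34 senses, was higher at 8 months (0.22 ± 0.06, 0.00299). Fut7, a fucosyltransferase of selectin ligands, was higher at 8 months (adjusted p = 0.0421) but at a low level, with 0.762 to 3.70 CPM in SgshKO and 0.265 to 1.18 CPM in WT.

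For each member lowered at 8 months the 3 nearest of 8807 genes were taken, by the root mean square difference of the 3 genotype log2 fold changes. Those of Selplg included Slco2b1 (0.06), also on the homeostatic list, and Adcy6 (0.07). Those of Cx3cr1 were Zfp383, Slc7a5 and Smad3 (0.02), those of Tmem119 were Nrip1, Mtss1 and the row named Mir7654 (0.05 to 0.06), and those of Olfml3 were Mib2, Bin2 and Actr5 (0.03 to 0.07). Siglech was nearest to Rab3il1, Pomt2 and Nrf1 (0.01), and Gpr34 to Scaf8, Cog8 and Mertk (0.01 to 0.02), the last a phagocytic receptor on the homeostatic list. Crybb1 had no close match, its nearest being Socs3, Eva1a and Gpd1 (0.25 to 0.30).

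In WT mice the ASOs lowered their targets. Mitf went from 34.5 to 50.4 CPM with ntc to 1.01 to 2.15 CPM with the Mitf ASO (-4.81 ± 0.12, edgeR adjusted p = 8.37e-15), Tfeb from 52.6 to 58.1 to 4.59 to 6.91 CPM with its ASO (-3.24 ± 0.08, 5.80e-15) and Tfe3 from 192 to 202 to 34.9 to 40.5 CPM with its own (-2.38 ± 0.06, 1.36e-15). For the ntc oligonucleotide itself against PBS, 0 of 8 were called by edgeR, 0 at an unadjusted p under 0.05 and 0 by DESeq2, with log2 fold changes of -0.05 to 0.06, and 0% of all genes were lower and 0% higher.

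Libraries of the treatments share a number in the titles, grp, from 1 to 4, which pairs them. The Mitf ASO lowered 4 of the 8, and these were the same 4, Cx3cr1, Olfml3, Selplg and Tmem119, that were lower in SgshKO at 3 weeks. Of all genes 5.21% were lower and 5.77% higher, and the overlap of the 4 genes was not tested. Cx3cr1 had 10921, 11711, 9626 and 11765 CPM with ntc and 9108, 8824, 8297 and 9536 CPM with the Mitf ASO, with no overlap (-0.30 ± 0.04, edgeR adjusted p = 8.91e-05). Olfml3 had 3737, 3822, 3382 and 3262 against 3029, 3366, 2738 and 2647 CPM, lower in each grp although the ranges overlapped (-0.27 ± 0.05, 0.00308). Both sets of libraries are given in order of grp. Selplg had 4855, 4870.4, 5051 and 5635 against 4009, 4148, 4769 and 4706 CPM (-0.21 ± 0.05, 0.0124), and Tmem119 had 4820.1, 5173, 4987 and 5361 against 4065, 4696, 4897 and 4341 CPM (-0.18 ± 0.05, 0.0265). Each was lower in all 4 pairs. The other 4 members had log2 fold changes of -0.19 to 0.08. With no replicate block 1 call was left, Cx3cr1, when 64 of 10277 genes were lower and 147 higher. The calls for Selplg (adjusted p = 0.0503 to 0.0673) and Tmem119 (0.101 to 0.172) were both lost without ntc replicate 1 or 4 or without Mitf replicate 1 or 2, and Tmem119 also without Mitf replicate 3 or 4 (0.0760 and 0.0774).

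**Figure D3:**
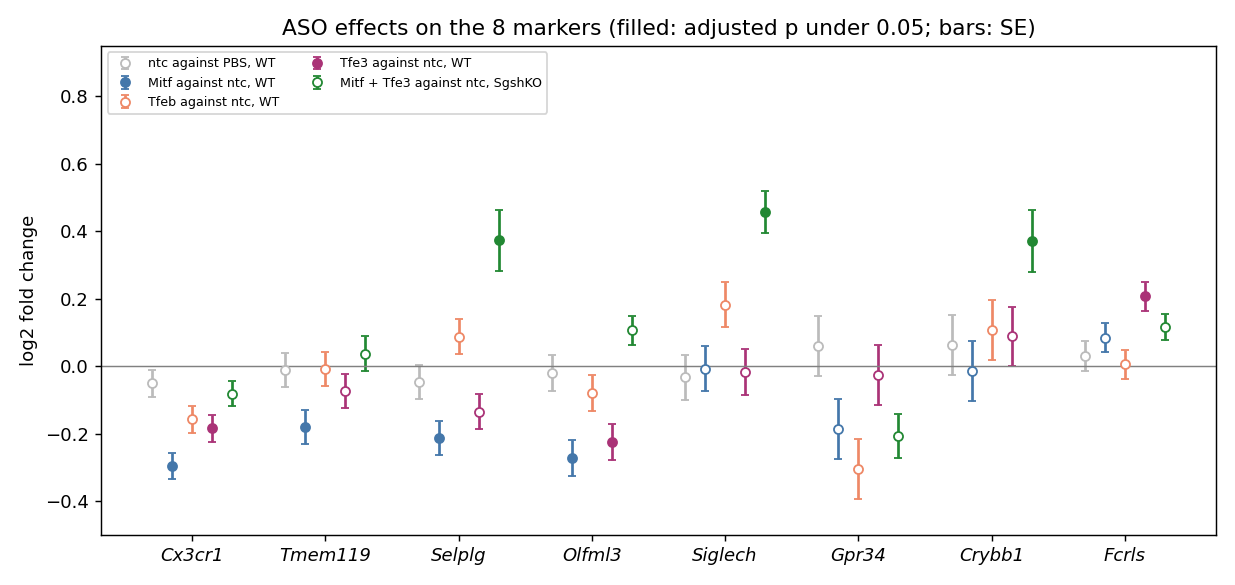
Log2 fold change (vertical axis) of the 8 markers in 4 comparisons of WT ASO libraries and 1 of SgshKO ASO libraries; bars are the SE from edgeR and filled points passed an adjusted p of 0.05. The ntc oligonucleotide lies between -0.05 and 0.06, the Mitf ASO is lowest in Cx3cr1 at -0.30, and the combined ASOs in SgshKO are highest in Siglech at 0.46.

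The Tfeb ASO changed 0 of 8 by edgeR (3 at an unadjusted p under 0.05, 2 by DESeq2), with log2 fold changes of -0.31 in Gpr34 to 0.18 in Siglech, when 0.214% of all genes were lower and 0.564% higher. The Tfe3 ASO lowered Cx3cr1 (-0.18 ± 0.04, edgeR adjusted p = 0.0193) and Olfml3 (-0.22 ± 0.05, 0.0335) and raised Fcrls (0.21 ± 0.04, 0.0175), against 0.701% and 1.46% of all genes. Fcrls had 4461, 4692, 4406 and 4279 CPM with ntc and 5161, 5221, 5258 and 4953 CPM with the Tfe3 ASO, with no overlap. None of these 3 calls was left with no replicate block, when 4 of 10277 genes were lower and 25 higher. Leaving out 1 library at a time left 0 to 2 of them. Olfml3 did not pass whichever of the 8 libraries was left out, nor did Cx3cr1 without ntc replicate 1, 2 or 4 or Tfe3 replicate 2, 3 or 4, or Fcrls without ntc replicate 1 or 3 or Tfe3 replicate 3 or 4 (adjusted p = 0.0506 to 0.170 over these). Whether the effects of the Mitf, Tfeb and Tfe3 ASOs differed from each other was not tested.

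Among the other homeostatic genes the Mitf ASO lowered 11 of 30 and raised 1 (edgeR), against 5.21% and 5.77% of all genes. Gpr165 (-1.18 ± 0.10, adjusted p = 6.51e-07), Upk1b (-0.74 ± 0.11, 0.000388) and Slco2b1 (-0.34 ± 0.04, 4.31e-05), the 3 named above for SgshKO, were among the 11. None of the 3 passed with the Tfeb or Tfe3 ASO. Tyrobp rose with each of the 3, at 0.51 ± 0.06 (6.38e-05) for Mitf, 0.33 ± 0.06 (0.0227) for Tfeb and 0.40 ± 0.06 (0.00303) for Tfe3. Of the 13 disease-associated genes measured in these libraries, 9 rose with the Mitf ASO and none fell, when 5.77% of all genes were higher and 5.21% lower. With the Tfe3 ASO 4 rose and with the Tfeb ASO 1, against 1.46% and 0.564% of all genes, and none fell.

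In SgshKO mice the Mitf and Tfe3 ASOs were given together, and the labels put 4 libraries of each treatment in grp 1 and 4 in grp 2. Mitf went from 60.7 to 82.1 CPM with ntc to 7.51 to 23.2 CPM (-2.26 ± 0.12, edgeR adjusted p = 2.19e-09) and Tfe3 from 137 to 194 to 75.0 to 87.1 CPM (-1.08 ± 0.06, 2.19e-09). 3 of the 8 members rose and none fell, when 4.84% of all genes were higher and 4.5% lower. These were Siglech, Selplg and Crybb1. All of them were lower in SgshKO than in WT at 8 months, but so were 7 of the 8 members. Tmem119 and Cx3cr1, also among those 7, had log2 fold changes of 0.04 ± 0.05 (edgeR adjusted p = 0.705) and -0.08 ± 0.04 (0.174).

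Siglech had the largest rise and the only groups without overlap. In WT its log2 fold change was -0.01 with the Mitf ASO alone and -0.02 with the Tfe3 ASO alone, neither of which passed. Those ASOs were given singly and fitted in another model, and whether the genotypes differ in this response was not tested. With ntc the libraries of grp 1 had 427, 494, 613 and 473 CPM and those of grp 2 656, 680.3, 611 and 669.9 CPM. With the 2 ASOs grp 1 had 685, 711.5, 693 and 738.5 CPM and grp 2 776, 862, 885 and 975 CPM. All 8 treated libraries were above all 8 ntc libraries, also within each grp. The log2 fold change was 0.46 ± 0.06 (edgeR adjusted p = 0.000283) over both, 0.51 in grp 1 alone (0.0481) and 0.41 in grp 2 alone (0.00377).

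Selplg had 1090.2, 1544, 1385 and 1421 CPM in grp 1 and 1711, 1549, 1399 and 1739.7 CPM in grp 2 with ntc. With the ASOs it had 1723, 1987, 1697 and 2446 CPM in grp 1, all above ntc, and 1693, 1772, 1859 and 2113 CPM in grp 2, where the ranges overlapped (0.37 ± 0.09, edgeR adjusted p = 0.0156). Crybb1 had 96.1, 141, 114 and 119.8 against 143, 161, 155 and 219 CPM in grp 1 and 112, 106, 94.6 and 108 against 111, 128, 133 and 118 CPM in grp 2 (0.37 ± 0.09, 0.0177). Both were thus apart in grp 1 and overlapping in grp 2. Within a grp neither passed: Selplg was at 0.54 (0.0662) and 0.21 (0.148), and Crybb1 at 0.54 (0.0767) and 0.21 (0.120). The Crybb1 call was also lost with no grp term (0.0721).

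**Figure D4:**
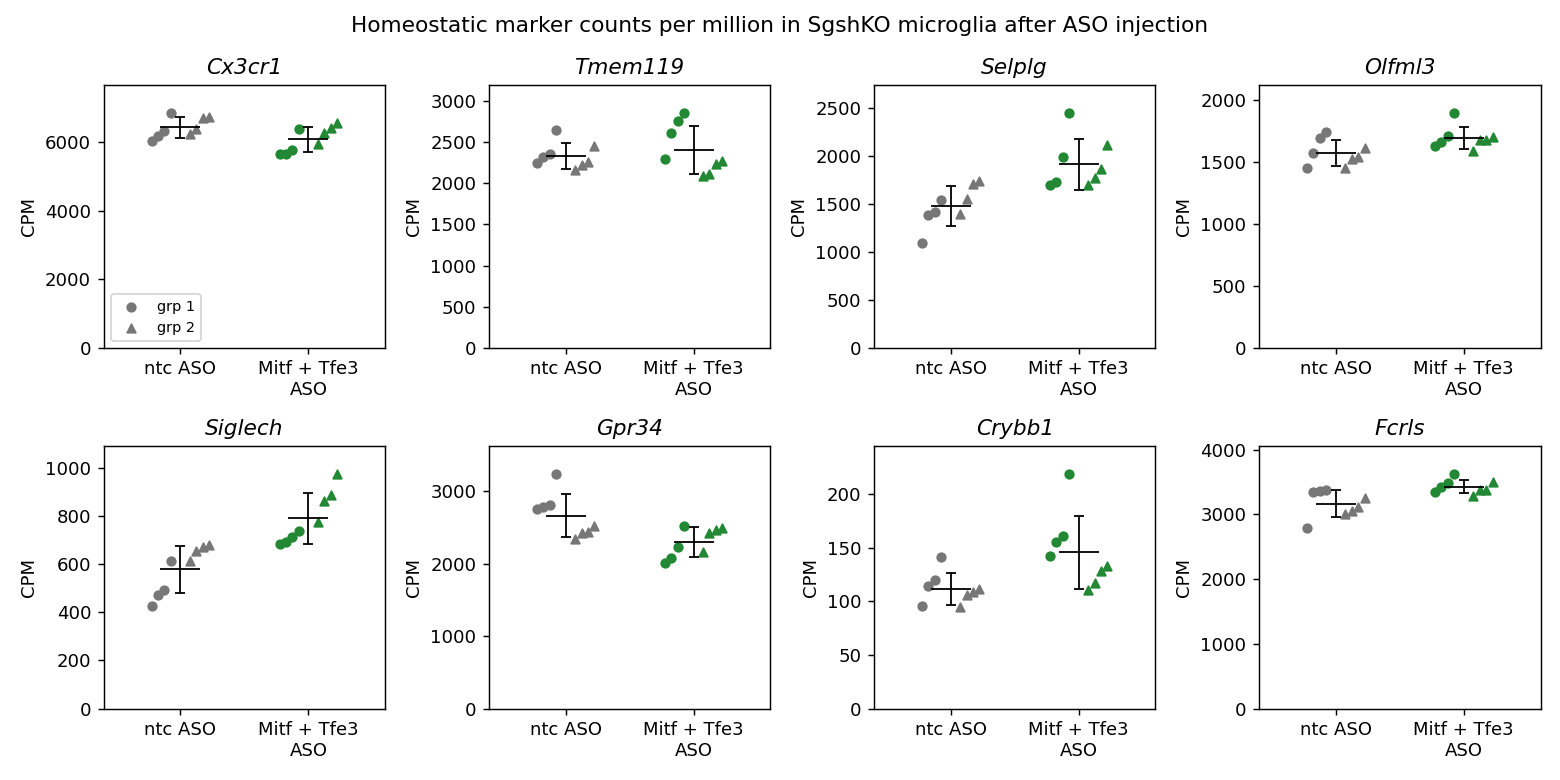
CPM (vertical axis, from 0) of the 8 markers in SgshKO libraries with the ntc ASO (grey) or the Mitf and Tfe3 ASOs (green), in grp 1 (circles) and grp 2 (triangles); points are libraries, black lines the mean and its SD over 8 libraries. The Siglech values of the treated libraries, 685 to 975 CPM, are all above those with ntc, 427 to 680.3 CPM, while the ranges of the other 7 genes overlap.

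The remaining members did not pass. Gpr34 was at 2342 to 3238 CPM (median 2636) with ntc and 2009.8 to 2520.4 CPM (median 2326) with the ASOs (-0.21 ± 0.07, edgeR adjusted p = 0.0535). In grp 1 its ranges were apart, at 2752 to 3238 CPM with ntc and 2009.8 to 2520.4 CPM with the ASOs (-0.37, adjusted p = 0.0509), and in grp 2 they overlapped, at 2342 to 2520 and 2167 to 2489 CPM (-0.04, 0.719). It passed in 4 of the 16 fits with 1 library left out, without ASO library 2 of grp 1, ASO library 1 or 2 of grp 2 or ntc library 4 of grp 2 (0.0341 to 0.0446). Fcrls was at 2789 to 3371 and 3288 to 3626 CPM (0.12 ± 0.04, 0.0674), and Olfml3 at 1448 to 1739 and 1588 to 1894 CPM (0.11 ± 0.04, 0.126). Gpr34 and Fcrls did pass by DESeq2 (0.0188 and 0.0376), which called 5 members, and the authors' batch-corrected signal called 7, with Cx3cr1 and Olfml3 besides these. Calls over all genes rose as well, from 476 lower and 512 higher by edgeR to 572 and 729 by DESeq2. In the batch-corrected signal they were 700 and 736. Of the other 30 homeostatic genes 6 rose and 1 fell, against 4.84% and 4.5% of all genes, among them Sparc (0.37 ± 0.04, 1.06e-05) and Golm1 (0.32 ± 0.06, 0.00147), both chosen here after their values were seen. Gpr165, Upk1b and Slco2b1, among the lowest in SgshKO, had log2 fold changes of 0.34, -0.20 and 0.03 and did not pass. Tyrobp rose here too (0.28 ± 0.06, 0.00615), whereas 10 of the 16 disease-associated genes fell. The summed level of the 16 was not lower, at 26450 to 31933 CPM with ntc and 28479 to 31873 CPM with the ASOs.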

How the data were processed

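The members, gene lists and tests were chosen with earlier results of these data known. Per the submitters' processing notes, the genome build was mm10 and the tools named were STAR 2.5.3a, kallisto 0.44.0, HOMER 4.11, DESeq2 1.36.0 and R 4.2.3, with no role or order given. The authors deposited raw counts for 3 sets of libraries, TPM for the age series, and a normalised, batch-corrected signal for the ASO sets whose method is not given in the sources used here.

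From the deposited counts, 1 model per file was fitted in R 4.3.3 with edgeR 4.0.16, using its quasi-likelihood test, TMM scaling and the filterByExpr rule at a minimum count of 10, with Benjamini-Hochberg adjustment over all genes tested and a threshold of 0.05. The SE is the log2 fold change divided by the square root of F. The ASO models held grp as a factor. In the WT set, where grp comes from the titles, same-numbered libraries of compared treatments correlated in their deviations from group means (r of 0.220 to 0.720 over 16 pairs). No block was used in the age series. For PBS replicate 4 the title gives grp 4 and the column name grp 3, and grp 4 was used. TPM and signal were tested with limma 3.58.1 as log2 of the value plus a pseudocount, and DESeq2 1.42.0 on counts was another alternative. The tests were run on simulated data first. Named besides the members, by rule, were the 4 lowest and any higher gene of the other homeostatic list at 8 months, each gene of the ligand and enzyme list called at 8 months, the 3 nearest genes of each lowered member with a mean CPM of at least 10, and the targeted genes. Some genes that this rule names are not reported here. Endothelial, oligodendrocyte, astrocyte, neuron, border macrophage and sort marker lists were checked by their sums: in the age series these were at most 71.4, 161, 402, 6.48, 1946 and 12206 CPM.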

Additional observations from a re-analysis of the deposited data

Results flagged for a closer look

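5 values lay far from the rest of their group, by the gap to its nearest neighbour relative to the range, out of 80 groups of 4 to 8 libraries checked, where chance gives about 1 in 20. Cx3cr1 was at 8411 CPM in WT Tfe3 ASO replicate 3, below 10086 to 10115 in the others. Olfml3 was at 3158 CPM in WT Tfe3 ASO replicate 1, above 2975 to 2999.9. Siglech was at 683 CPM in WT PBS replicate 2, below 851 to 882. Under the Mitf and Tfe3 ASOs in SgshKO, Crybb1 was at 219 CPM in grp 1 replicate 4, above 111 to 161, and Olfml3 at 1894 CPM in grp 1 replicate 2, above 1588 to 1711. In the SgshKO ASO set leaving out 1 library at a time left 3 to 4 of the 8 members called.

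The SgshKO effect differed between ages, by the interaction in edgeR, in 8 cases. From 3 weeks to 4 months the log2 difference was -0.67 in Cx3cr1, -0.70 in Tmem119 and -1.71 in Crybb1. From 3 weeks to 8 months it was -0.43 in Cx3cr1, -0.58 in Tmem119, -0.38 in Siglech, -0.50 in Selplg and -1.76 in Crybb1.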

How the results depend on the processing

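Of 640 values under other settings 603 kept direction and side of the threshold, 26 lost it, 7 gained it and 4 changed sign; of 652 with 1 library left out the numbers were 591, 53, 4 and 4. The sign changes were all of values that had not passed: Gpr34 at 3 weeks (0.027 with a replicate block, -0.074 to 0.027 with 1 library left out), Fcrls at 4 months (-0.017 and -0.017 in TPM with pseudocounts of 1 and 0.1, -0.22 to 0.29 with 1 left out) and Tmem119 under the combined ASOs (-0.074 in grp 2 alone). In the 4-month TPM fits the median over all genes was -0.12 and -0.13.

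The main moves in the number of the 8 members called were as follows, and some smaller moves are left out. In the age series same-numbered libraries did not deviate together (r of -0.175 to 0.155 over 9 pairs), and in the SgshKO ASO set r was 0.0178 to 0.622 over 8 pairs within a grp. With a replicate block the effect at 8 months against 3 weeks gave 3, losing Siglech and Selplg (adjusted p = 0.0606 and 0.0517), 3 weeks gave 3, losing Cx3cr1 (0.0924), and no other count there or under the combined ASOs moved. With that block lower genes over all 14309 went from 467 to 361 for the effect and from 532 to 462 at 3 weeks. By DESeq2 the effect at 4 months against 3 weeks gave 4, that at 8 months against 4 months 1, and WT at 8 months against 3 weeks 5. The Tfeb ASO gave 2 and the combined ASOs 5. Over all genes, lower and higher, it called 232 and 460, 61 and 107, 869 and 580, 70 and 143, and 572 and 729. In the same order edgeR called 128 and 233, 19 and 37, 662 and 432, 22 and 58, and 476 and 512. In batch-corrected signal the Tfeb ASO gave 1 and the combined ASOs 7. Over all genes 47 were then lower and 98 higher for Tfeb, and 700 lower and 736 higher for the combined ASOs. With the Ddx3y and Xist covariate WT gave 0 at 4 months and 0 at 8 months against 3 weeks, and with the dissociation response covariate 0 at 4 months. Calls over all genes fell as well. With the Ddx3y and Xist covariate lower genes in WT went from 372 to 298 at 4 months and from 662 to 256 at 8 months. With the dissociation response covariate they went from 372 to 52 at 4 months. With no replicate block the Mitf ASO gave 1 and the Tfe3 ASO 0. Lower genes over all 10277 then went from 535 to 64 for Mitf and from 72 to 4 for Tfe3. Higher genes went from 593 to 147 and from 150 to 25. The combined ASOs gave 1 in grp 1 alone and 1 in grp 2 alone. Over all genes 69 were lower and 123 higher in grp 1 alone, and 268 and 162 in grp 2 alone. With 1 library left out the ranges were 1 to 5 for the effect at 4 months against 3 weeks, 3 to 5 at 8 months against 3 weeks, 0 to 1 at 8 months against 4 months, 0 to 1 for WT at 4 months against 3 weeks, 2 to 4 for the Mitf ASO and 0 to 2 for the Tfe3 ASO. Over all genes, lower calls with 1 library left out ran from 245 to 458 for the Mitf ASO, where all libraries gave 535. They ran from 17 to 45 for the Tfe3 ASO, where all libraries gave 72. Groups of 2 libraries limit the 4-month values, and a group left with 1 library there is assumed to vary like the others.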
